A study of Caenorhabditis elegans with 2 samples.

Results

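Of the 1636 nuclear peaks that the authors called reproducible in a chromatin immunoprecipitation of CEH-36-GFP from early Caenorhabditis elegans embryos, 205 (12.5%) had their summit within 500 bp of an annotated tRNA gene, and 1431 did not. The list, named optimal by the authors after the irreproducible discovery rate procedure, held a further 26 mitochondrial peaks, which are not described here. CEH-36, an Otx-class homeodomain protein with a role in chemosensory neuron fate, carried GFP and FLAG at its C terminus in the strain OP620 (genotype unc-119(tm4063) III; wgIs620). Chromatin from whole embryos of both sexes, harvested 2 hours after egg bleaching, was sonicated and precipitated with an antibody against GFP, in 2 biological replicates that form the only group. All embryos carried the transgene, the labels elsewhere give the antibody as ceh-36, and no list from untagged embryos was analysed here. The annotation held 612 nuclear tRNA genes, and 235 of them (38.4%, exact 95% binomial interval 34.5 to 42.4%) had a summit within 500 bp.

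tRNA genes are transcribed by RNA polymerase III from promoters inside the gene, the A box near its start and the B box in the part that encodes the T loop. The factor TFIIIC binds these boxes and places TFIIIB upstream of the start, and transcription ends in a run of T after the gene. Multicellular genomes hold many copies of most tRNA genes, often identical in the transcribed sequence, and not every copy need be active in a given tissue. Aminoacyl-tRNA synthetases then charge each tRNA with the amino acid that its anticodon calls for, and the amino acid names the isotype.

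Copies with identical transcribed sequence were often split between those with a peak and those without, so 4 such pairs are shown. They are the families with the strongest peaks for which an identical copy without a peak existed, among those with every copy outside the first autosome. Sequences are from the ce11 reference (WBcel235) and run 5′ to 3′ on the strand of the gene. Capitals mark the B box core, searched as GTTCGANNC or GTTCAANNC, where N is any base.
Leu-UAG gene C04A2.t1, chrII:6853204-6853285, plus strand: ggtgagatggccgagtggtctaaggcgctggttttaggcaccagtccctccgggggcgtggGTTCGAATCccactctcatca
Lys-UUU gene C33G3.t2, chrX:14063946-14064018, minus strand: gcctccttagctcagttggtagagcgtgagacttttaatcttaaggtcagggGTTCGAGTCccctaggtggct
Ala-UGC gene F15G9.t1, chrX:9743589-9743660, plus strand: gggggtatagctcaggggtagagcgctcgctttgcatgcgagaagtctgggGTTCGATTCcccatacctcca
His-GUG gene C06G1.t1, chrX:16634830-16634901, minus strand: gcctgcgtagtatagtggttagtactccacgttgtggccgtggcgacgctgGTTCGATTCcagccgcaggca

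Each sequence above was present in several copies: 3 copies for Leu-UAG with a peak at 2, 14 copies for Lys-UUU with a peak at 6, 8 copies for Ala-UGC with a peak at 4, and 11 copies for His-GUG with a peak at 3. The copies differ in the sequence before the gene. The 60 bases directly upstream of each of the 4 copies with a peak follow, in lower case throughout because none holds a searched motif.
C04A2.t1, chrII:6853144-6853203: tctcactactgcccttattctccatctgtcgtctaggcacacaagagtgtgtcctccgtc
C33G3.t2, chrX:14064019-14064078: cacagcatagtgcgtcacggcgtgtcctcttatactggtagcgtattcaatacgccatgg
F15G9.t1, chrX:9743529-9743588: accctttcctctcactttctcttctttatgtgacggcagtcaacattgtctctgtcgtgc
C06G1.t1, chrX:16634902-16634961: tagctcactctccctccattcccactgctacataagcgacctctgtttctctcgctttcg

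The same 60 bases are given for an identical copy of each that had no peak.
C16D9.t2 (Leu-UAG), chrV:8235540-8235599: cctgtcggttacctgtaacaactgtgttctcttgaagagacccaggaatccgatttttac
ZK994.t2 (Lys-UUU), chrV:8499637-8499696: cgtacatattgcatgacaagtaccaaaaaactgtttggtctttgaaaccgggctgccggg
Y37A1B.t1 (Ala-UGC), chrIV:14013877-14013936: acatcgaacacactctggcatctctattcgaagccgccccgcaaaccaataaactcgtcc
C49F5.t1 (His-GUG), chrX:11993593-11993652: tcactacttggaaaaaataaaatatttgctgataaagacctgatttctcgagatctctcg

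Peak strength is given as the signal value of the authors' peak caller, which describes a peak within its own list. C04A2.t1 had a signal of 608.4 in the list called on pooled replicates, with 253.3 in the replicate 1 list and 352.5 in the replicate 2 list. Its identical copy C16D9.t2 had no entry in the pooled or replicate 2 list, but one of 64.1 in the replicate 1 list. C33G3.t2 (455.9), F15G9.t1 (433.0) and C06G1.t1 (401.4) had strong pooled peaks, while their copies ZK994.t2, Y37A1B.t1 and C49F5.t1 had no entry within 500 bp in any of the 3 lists. Such empty copies are not typical. Of the 377 tRNA genes without an optimal peak, 189 had a weaker pooled entry and 132 had none in any of these lists. The summit inside F15G9.t1 also lay within 500 bp of F15G9.t2, an Ala-AGC gene. The GC content of the 50 bases upstream was 54% at C04A2.t1 against 42% at C16D9.t2, and 52% at C06G1.t1 against 32% at C49F5.t1. It was 52% at C33G3.t2 against 50% at ZK994.t2, and ran the other way for Ala-UGC, with 46% at F15G9.t1 against 54% at Y37A1B.t1.

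The 205 peaks lay in 205 distinct intervals and were nearest to 203 tRNA genes. Since tRNA genes are often neighbours, 178 peaks had 1 tRNA gene within 500 bp and 27 had 2 or more, up to 4. In consequence 32 of the 235 genes with a summit within 500 bp were the nearest gene of none. The choice of distance mattered little for the number of peaks, because 152 summits (74.1%) lay inside the tRNA gene and 198 (96.6%) within 50 bp of it. It mattered more for the genes, of which 217 (35.5%) had a summit within 200 bp and 261 (42.6%) within 1000 bp. The members just inside the limit had summits 172 bp from C02B4.t1, 382 bp from C36F7.t3 and 489 bp from T22F3.t3, with signals of 135.3, 104.2 and 142.7. The nearest peaks outside lay 806 bp from Y110A2AL.t1, 818 bp from ZK970.t3 and 837 bp from T03E6.t1, with signals of 294.8, 163.0 and 264.2.

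Peaks are not replicates of a condition and there is 1 group, so shares and medians below describe the lists and no test was run. Read depth is unknown, since the lists hold no read counts, and intervals cover counting error over genes only.

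The tRNA peaks were concentrated among the strong nuclear peaks. Their median signal was 178.7 (interquartile range 125.7 to 248.9, range 88.0 to 681.4), against 118.4 (97.1 to 170.6, range 87.2 to 942.5) for the other nuclear peaks. In 10 equal bins of the nuclear list by signal, they made up 45 of the 164 peaks (27.4%) in the strongest bin, against 12.5% in the whole list. The share was 20.1% in the next bin and 2 of 163 (1.23%) in the weakest. Among the 100 strongest nuclear peaks 31 were at tRNA genes, and among the 10 strongest 2 were.

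The strongest was at W03G11.t1, an intergenic Lys-CUU gene on X, with a signal of 681.4 and the rank of 29 in both replicate lists. The C04A2.t1 peak (Leu-UAG, 608.4) lay in an intron of C04A2.15 on chromosome II. E03E2.t1, a Ser-GCU gene with 595.7, lay on the opposite strand in an intron of cat-1, which encodes the vesicular monoamine transporter. C04A11.t1, a Leu-CAA gene on X, had 593.9 and no identical copy in the genome. C37A2.t1 (Cys-GCA, 536.3) lay in an intron of cye-1, the gene of cyclin E. F57F5.t1 (Ile-UAU, 513.9) was intergenic on V and also unique in sequence. These genes carried 6 different anticodons and lay in introns and between genes alike.

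The next in order was sup-5, a Trp-CCA gene in an intron of fli-1, with 492.9. F29C4.t1 (Arg-CCU, 470.3, in an intron of the collagen gene col-99 on its opposite strand) had its summit 19 bp upstream of the gene, unlike the others of the 12 strongest, whose summits lay 0 to 20 bp after the first base. C28G1.t1 (Glu-UUC, 456.6) overlapped an exon of C28G1.2, and C33G3.t2 (Lys-UUU, 455.9) and F56F3.t1 (Arg-UCG, 438.1) were intergenic. F17H10.t1 (Gly-GCC, 434.9) lay in an intron of snx-17, which encodes a sorting nexin. At the lower end were F42F12.t1 (Leu-CAA, 91.6), F21C3.t1 (Lys-CUU, 88.7) and F28F8.t1 (Ser-UGA, 88.0), each of a sequence found once. Lys-CUU and Leu-CAA thus stood at both ends of the range.

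Summits gathered near the start of the tRNA gene. Counted along the strand of the gene with its first base as 0, the median summit position was 13 bp (interquartile range 7 to 49, range -382 to 560), where the median tRNA gene was 72 bases long and the B box core began at base 53 in the median. In all, 99 summits (48.3%) lay in the first 36 bases of the gene, 53 (25.9%) in the rest of it, 33 (16.1%) upstream and 20 (9.76%) downstream. Within 6 to 15 bp after the first base there were 64 summits (31.2%), none at 21 to 25 bp, 66 from 26 to 75 bp, and 20 between 30 and 16 bp upstream. These position ranges were chosen after the positions had been seen.

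The position went with strength: 43 of the 102 stronger tRNA peaks (42.2%), with signals of 179.8 or more, had their summit at 6 to 15 bp, against 21 of the 103 weaker ones (20.4%). The median position was 12 bp in the stronger and 30 bp in the weaker peaks. Genes on the plus strand (102 peaks, median 13 bp) and on the minus strand (103 peaks, median 15 bp) had like positions along their own strands. Peaks with a single tRNA gene nearby had the same median as all (13 bp, 178 peaks). The matching entries had medians of 12 bp in the replicate 1 list (203 entries) and 17 bp in the replicate 2 list (204 entries).

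**Figure D1:**
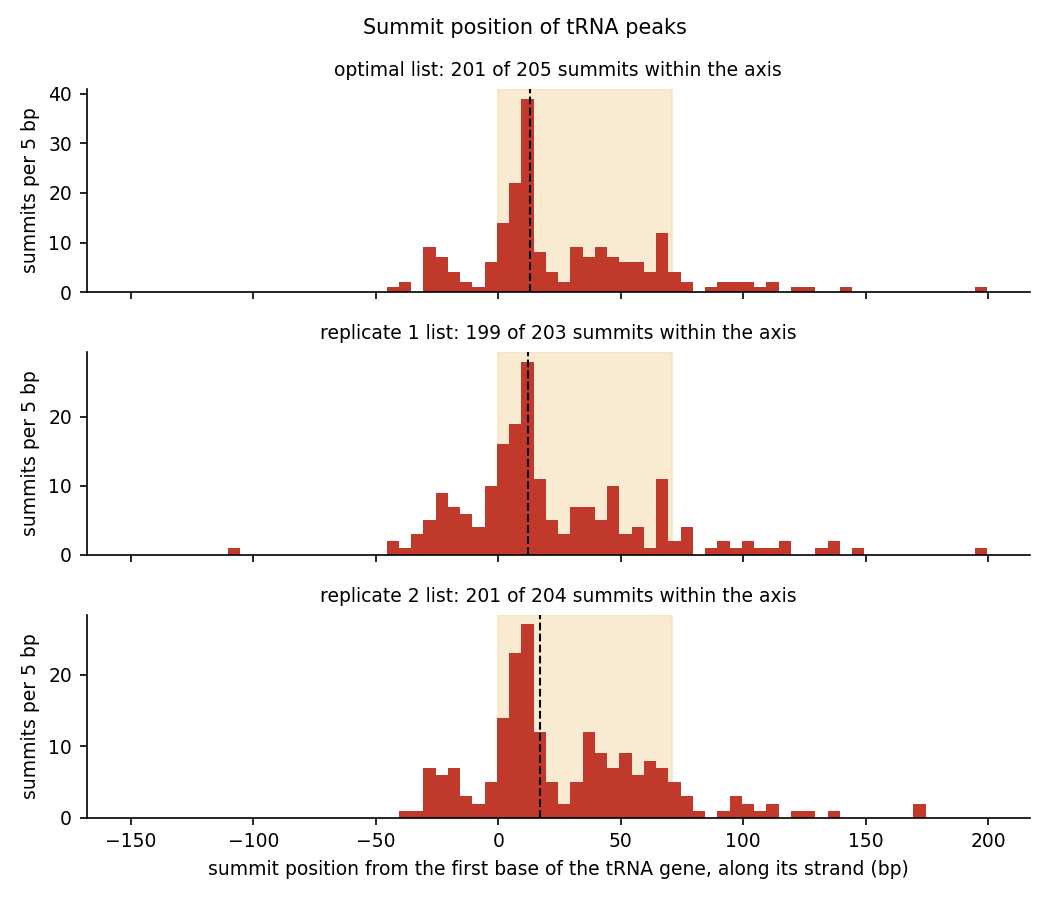
Number of summits per 5 bp along the strand of the nearest tRNA gene (x axis, bp from its first base), for the optimal list and the matching entries of each replicate list; the shaded band is a gene of median length (72 bases) and the dashed line the median. All 3 lists have their highest bars near 10 bp, with medians of 13, 12 and 17 bp, and lower clusters upstream and in the later part of the gene.

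The tRNA peaks were found in both replicates more often than the other peaks of the list as a whole, while shares at like signal were close. Entries overlapping them by 1 bp or more were present for 203 of 205 in the replicate 1 list and 204 of 205 in the replicate 2 list, each of which holds 30000 entries with background. When each replicate list was held to as many of its strongest entries as the optimal list has, 176 tRNA peaks (85.9%) were in both, against 917 of 1431 other nuclear peaks (64.1%) and 66.8% of all nuclear peaks. By replicate the shares were 89.8% of tRNA peaks against 78.8% of other peaks in replicate 1, and 94.6% against 82.1% in replicate 2. In 4 bins of equal size by pooled signal, from strongest to weakest, 100 of 101 tRNA peaks and 306 of 308 other peaks were in both, then 94.4% and 94.9%, 64.9% and 62.1%, and 7.69% (1 of 13) and 10.9% (43 of 396).

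Signals in the replicate lists were ordered alike. Spearman's rho between replicates was 0.87 over 202 tRNA peaks, against 0.64 over 1427 other peaks; the peaks share 2 libraries and a pooled call, and rho describes them only. The summits of the replicates were 16.5 bp apart in the median at tRNA peaks and 22 bp apart at the others. The largest rank differences were at F49D11.t2 (Gly-UCC), ranked 14282 in replicate 1 and 778 in replicate 2, K04A8.t2 (Ser-GCU), ranked 3819 and 1020, and F28F5.t1 (Asn-GUU), ranked 2653 and 793. In the other direction stood T04D3.t2 (Gly-UCC), ranked 477 in replicate 1 and 7555 in replicate 2, F22B7.t3 (Phe-GAA), ranked 907 and 3922, and the weaker summit near C02B4.t1 (Ile-UAU), ranked 790 and 2924. Ranks are those of the overlapping entry with the closest summit, and 2 of these differences rest on that choice. T04D3.t2 also had a replicate 2 entry of 75.3 within 500 bp, near its 76.8 in replicate 1, where the matched one had 29.2. F49D11.t2 had a replicate 1 entry of 41.4, where the matched one had 19.3. The pooled signals of these 6 peaks lay between 95.5 and 142.7, all below the tRNA median.

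**Figure D2:**
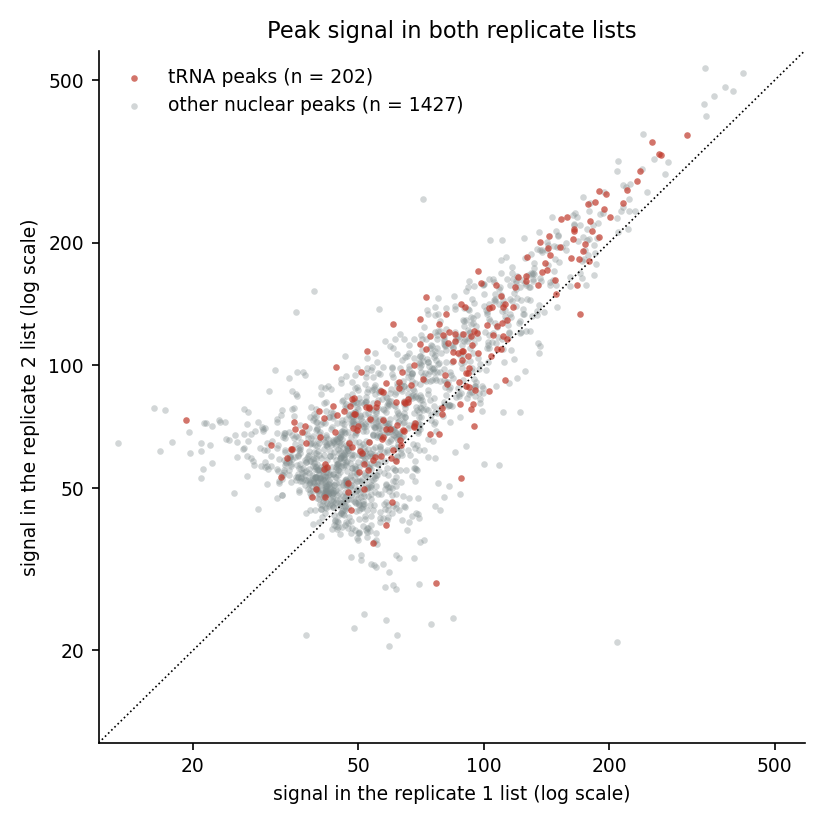
Signal of each nuclear optimal peak in the replicate 1 list (x axis) and the replicate 2 list (y axis), both on log scales, for tRNA peaks (red, n = 202) and other nuclear peaks (grey, n = 1427); the dotted line marks equal signal. The tRNA peaks spread less around the trend (rho 0.87) than the others (rho 0.64), and fewer of them lie in the dense cloud of weak peaks.

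Peaks were spread over most of the tRNA repertoire. Anticodons could be assigned to 600 of the 612 genes, in 48 anticodon families of 21 isotypes, and 43 families and 20 isotypes had a peak. None of the 12 genes without an assigned anticodon had one. The 5 families without a peak were Arg-CCG, Arg-GCG, Gly-CCC, His-AUG and Sec-UCA, the last a single selenocysteine gene. All 39 families of 5 or more genes had at least 1 gene with a peak.

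The highest shares among families of 5 or more genes were Cys-GCA with 9 of 13 genes (69.2%), Met-CAU with 12 of 19 (63.2%) and Arg-UCU with 5 of 8 (62.5%), against 38.4% of all. Clustering adds to these, since counting only genes nearest to a summit left 7, 9 and 4, and the order then changes. The lowest were Tyr-GUA and Leu-AAG, each with 4 of 19 (21.1%), and Pro-UGG with 7 of 31 (22.6%). By nearest genes the highest were Val-UAC with 3 of 5, Glu-UUC with 10 of 17 (58.8%) and Leu-CAA with 4 of 7 (57.1%), and the lowest Ser-AGA with 2 of 15 (13.3%), Gln-CUG with 1 of 7 (14.3%) and Pro-UGG with 5 of 31 (16.1%). The exact intervals of 19 of the 20 standard isotypes held the overall share, and that of Cys, starting at 38.6%, narrowly did not. Summits shared by neighbours make such intervals too narrow. Signal was ordered differently, with median signals of 126.4 at the Cys-GCA genes with a peak and 117.2 at Met-CAU, against 181.2 at all genes with one.

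Both kinds of methionine tRNA, initiator and elongator, carry the same anticodon. The 10 Met-CAU genes whose sequence begins with A, as the initiator does in eukaryotes, had a peak at 5, with a median signal of 219.0. Those beginning with G had one at 7 of 9, with a median of 117.0, and 3 of these 7 (C25F6.t1, C25F6.t2 and C25F6.t3) shared a single summit. The genes beginning with A lack the searched B box core. This split was made after the values had been seen.

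**Figure D3:**
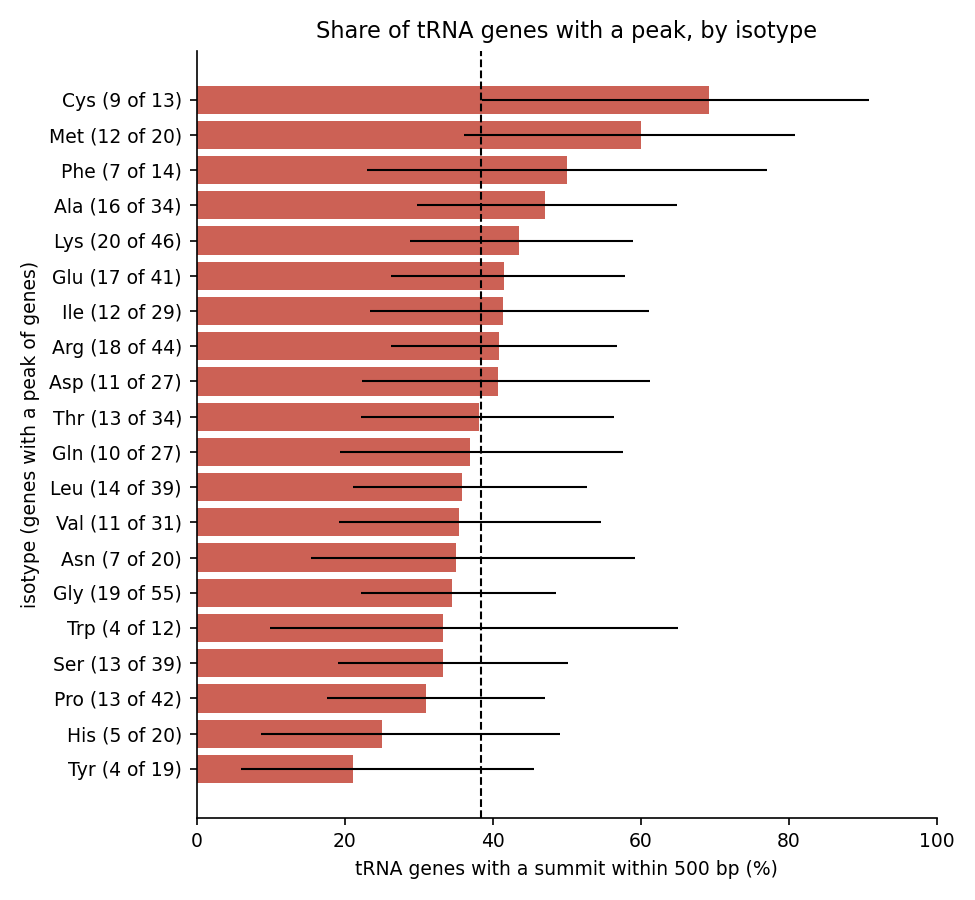
Share of tRNA genes with a summit within 500 bp (x axis, %), by isotype, with exact 95% binomial intervals as lines and the share over all 612 genes (38.4%) as a dashed line; labels give genes with a peak and genes in the isotype. Shares run from 69.2% (Cys) to 21.1% (Tyr). Every interval crosses the dashed line but that of Cys, which starts just above it at 38.6%. Summits shared by neighbours make the intervals too narrow.

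Identity of the transcribed sequence did not decide whether a gene had a peak. The 612 genes held 200 distinct sequences, of which 57 were present more than once. Of these 57 groups 44 had copies with and copies without a peak, 4 had a peak at every copy (2 copies each) and 9 at none (up to 7 copies). All 20 groups of 10 or more copies were split, with 25 to 75% of copies at a peak. The sources used here do not say how reads that align equally to several copies were treated, and such reads could come from any copy.

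Genes of a repeated sequence had a peak more often, at 198 of 469 (42.2%), against 37 of 143 (25.9%) for sequences found once. Leaving out the genes with no assigned anticodon gave 37 of 131 (28.2%) for unique sequences. Beyond a single copy there was no further gradient: the share was 45.1% at 2 to 5 copies, 42.0% at 6 to 10, 43.1% at 11 to 20 and 38.4% at 21 or more.

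The genes for tRNA Trp-CCA show the spread within a group best, since several bear names from genetics. Amber suppressor alleles, in which the anticodon reads a stop codon, gave the sup genes their names. This group was singled out after its values had been seen. In 10 identical copies, sup-5 on III had a signal of 492.9 (221.1 in the replicate 1 list and 268.8 in the replicate 2 list), sup-7 on X had 212.5 (97.0 and 107.2), and sup-28 on X had 106.5 (36.5 and 68.6). The copies sup-21, sup-24 and sup-33 had no entry in any list, and sup-29 had only one of 19.3 in the replicate 1 list. Both sup-28 and sup-33 lie in introns of trk-1, so a copy with a peak and an identical one without shared a host gene. The gene rtw-5, whose sequence differs, had 141.1, and rtw-6 had 39.1 in the pooled list, below the threshold.

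**Figure D4:**
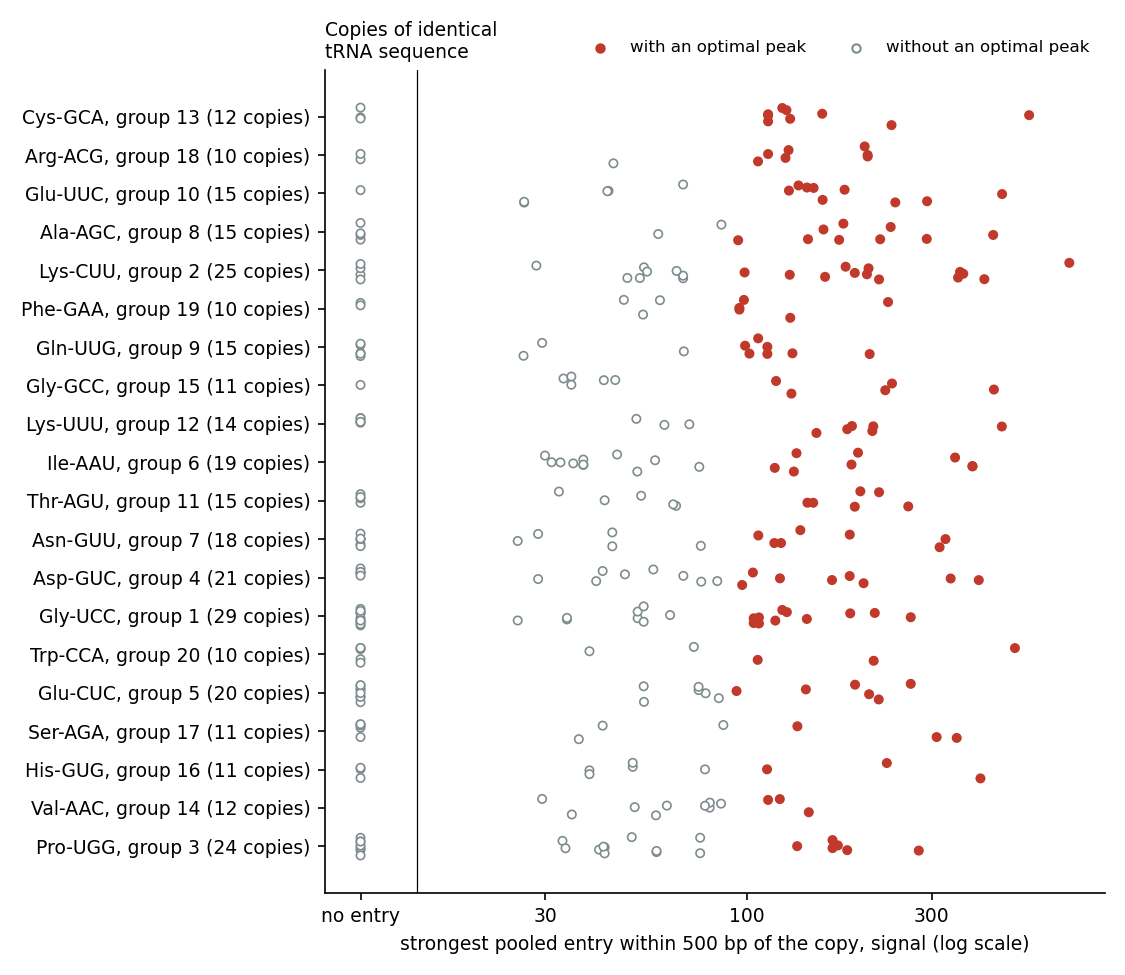
Strongest pooled entry within 500 bp (x axis, signal on a log scale; copies with none at the left of the vertical line) of each copy in the 20 groups of 10 or more identical tRNA sequences, one row per group; filled points had an optimal peak and open points did not. Every row holds filled and open points, and filled shares run from 25% (Pro-UGG, Val-AAC) to 75% (Cys-GCA).

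Below the threshold the lists still held many tRNA genes. An entry of the pooled list lay within 500 bp of 424 tRNA genes (69.3%), against 30.5% of the 19973 protein-coding gene starts. Several other RNA gene classes lay above the protein-coding share, with entries at 63.9% of snoRNA genes, 49.0% of miRNA genes, 47.9% of lincRNA genes, 42.6% of snRNA genes and 39.2% of tRNA pseudogenes, while piRNA genes had one at 4.56%. Of the 377 tRNA genes without an optimal peak, 189 (50.1%) had such an entry, with a median signal of 49.0 and at most 86.8, while 132 had none in the pooled list or either replicate list. Among these 377, 196 had an entry in replicate 1 and 188 in replicate 2.

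A few tRNA genes were strong in both replicate lists and yet absent from the pooled list. R01H5.t1, a Thr-UGU gene at chrX:12563788-12563859, had a signal of 143.1 and rank 134 in replicate 1, and 200.5 and rank 100 in replicate 2. The cluster of F12D9.t1, F12D9.t5 and F12D9.t6 on X shared an entry of 92.0 in replicate 1 (rank 352) and of 96.7 in replicate 2 (rank 465). None of these 4 genes had a pooled entry within 500 bp. Of the strongest nuclear entries of each replicate, as many as above, 25 of 1638 in replicate 1 and 16 of 1638 in replicate 2 had no pooled summit within 500 bp, and 8 and 3 of these were at tRNA genes. Why they are missing from the pooled list was not tested.

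In C. elegans the X chromosome carries a large part of the tRNA genes, and the tRNA peaks followed them. X held 276 tRNA genes (45.1%) and 89 of the 205 tRNA peaks (43.4%), against 149 of the 1431 other nuclear peaks (10.4%). A peak was present at 110 of 276 genes on X (39.9%, interval 34.0 to 45.9%) and at 125 of 336 on autosomes (37.2%). With a limit of 200 bp the order turned, at 35.1% on X and 35.7% on autosomes. By autosome the shares were 37.9% on I, 42.1% on II, 46.9% on III, 33.8% on IV and 28.2% on V. The median signal of tRNA peaks was 200.1 on X and 142.7 to 189.1 on the autosomes.

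Location in an intron of a protein-coding gene made little difference. A peak was present at 111 of 283 intronic tRNA genes (39.2%) and at 120 of 319 intergenic ones (37.6%), and the order turned when the stronger peaks or a single replicate were used. Genes on the same strand as their host had a peak in 63 of 160 cases (39.4%) and those on the opposite strand in 48 of 122 (39.3%). Of the peaks, 101 were at intronic tRNA genes (median signal 159.1), 100 at intergenic ones (184.6) and 4 at tRNA genes overlapping exons (146.9).

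The intronic genes lay in 220 host genes, of which 98 had a tRNA gene with a peak. The largest clusters were in K01A12.3, where 4 of 5 tRNA genes shared 1 summit with a signal of 113.3, and in ajm-1, an apical junction gene, where 3 of 5 Gln genes shared a summit of 112.8. Of the 12 hosts with 3 tRNA genes, 8 had a peak at none of them. Fewer tRNA peaks than other nuclear peaks lay within 500 bp of a protein-coding gene start, 37 (18.0%) against 376 (26.3%).

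The searched cores of the promoter boxes did not set the genes with a peak apart. The B box core was in 226 of 235 tRNA genes with a peak (96.2%) and in 361 of 377 without (95.8%). A run of TTTT in the 25 bases after the gene was found at 99.6% with a peak and 98.1% without. The A box core, searched as TGGCNNAGT, was in 11.5% with a peak and 9.02% without. This form matched only 61 of the 612 genes, and other forms of the A box were not searched. With the B box core in nearly all genes of both sets, these searches cannot tell whether the boxes differ. Within 100 bp of the summit, on either strand, the B box core occurred at 94.1% of tRNA peaks and 6.08% of other nuclear peaks, and the A box core at 11.7% and 3.35%; tRNA peaks were chosen by tRNA genes, which hold these boxes.

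The core motif of CEH-36 and other Otx-class homeodomains, TAATCC, was rare at tRNA peaks. On either strand within 100 bp of the summit it was found at 14 tRNA peaks (6.83%), against 672 other nuclear peaks (47.0%). Equally wide windows placed 500 bp to the left of the tRNA summits held it at a share of 6.34%. Median signals were 198.5 at the 14 tRNA peaks with the motif and 173.0 at those without it. The strongest of the 14 was E03E2.t1 (595.7), where the motif lay 30 bp from the summit, and the next were F56F4.t2 (410.8, 84 bp) and F28F8.t3 (397.4, 14 bp).

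The sequence before the gene did differ, a comparison made after the sequences had been seen. The GC content of the 50 bases upstream had a median of 46% (interquartile range 40 to 52%) at genes with a peak and 40% (34 to 46%) at genes without, while the 50 bases downstream had a median of 26% in both. Ordered by upstream GC into 4 bins of 153 genes, a peak was present at 15, 35.3, 47.1 and 56.2% of genes, from the lowest bin (12 to 36% GC) to the highest (50 to 70%). The pooled list, which includes weak entries, gave 47.1, 65.4, 79.1 and 85.6%.

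The same held among identical copies, where the transcribed sequence is constant. In 38 of the 44 split groups the copies with a peak had the higher mean upstream GC, and in 6 the copies without, with a median difference of 5.79 percentage points. Downstream, copies with a peak were higher in 24 of 44, with a median difference of 1.1 points. The hexamer CTCTCT or its reverse complement AGAGAG was in the 100 bases upstream of 55 genes with a peak (23.4%) and 25 without (6.63%). At protein-coding gene starts the share was 6.87%, but their median upstream GC was lower, at 32%, so they are not a like baseline. The hexamer was not examined apart from GC content. The hexamer was not planned beforehand. It was added after the sequences had been seen and was counted in the same genes. GC content also affects how well fragments are amplified and sequenced, and its part here was not tested. tRNA genes of repeated and of unique sequence had the same median upstream GC of 42%.

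**Figure D5:**
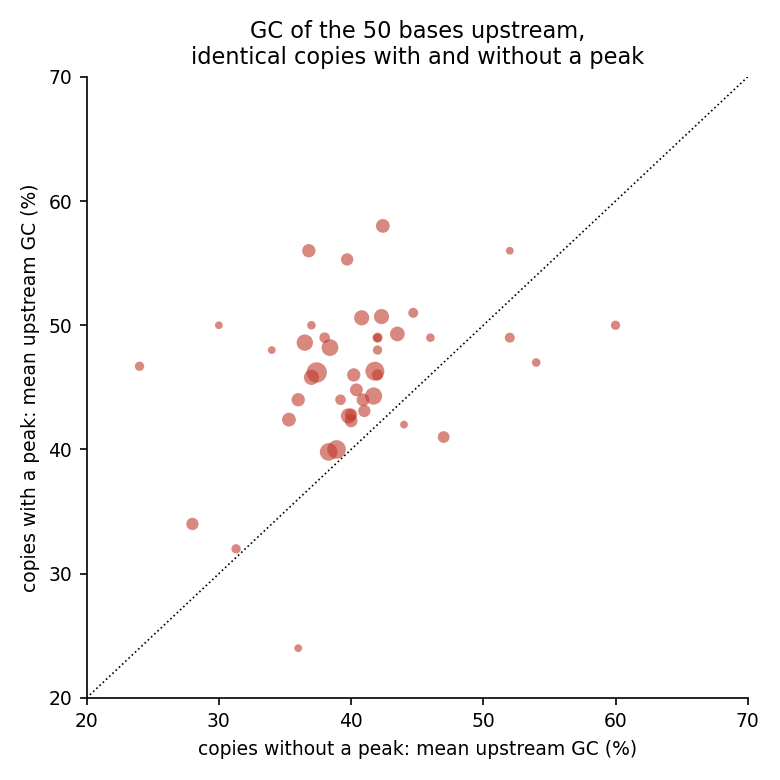
Mean GC content of the 50 bases upstream, for copies with a peak (y axis, %) and copies without (x axis, %), in the 44 groups of identical tRNA sequence that hold both; point size grows with the number of copies and the dotted line marks equality. Points above the line (38 of 44) are groups whose copies with a peak had the higher GC.

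The larger classes of other RNA genes had peaks at lower shares than the 38.4% of tRNA genes. tRNA pseudogenes, of which 78.9% still hold the B box core, had a peak within 500 bp at 5 of 209 (2.39%), although at C52E12.t1 (594.5), D1046.t1 (419.1) and T08B2.t1 (285.4) it was strong. snoRNA genes, which guide RNA modification, had one at 68 of 346 (19.7%), snRNA genes at 13.2%, miRNA genes at 9.2%, lincRNA genes at 6.19% and piRNA genes at 0.26%. Of 3 single genes that RNA polymerase III transcribes 2 had a peak. The gene rpr-1, the RNase P RNA, had a peak of 369.1 and mrpr-1, the RNase MRP RNA, one of 241.8. The Y RNA gene yrn-1 had none, nor had any of the 16 annotated rrn-4 copies of 5S rRNA. Most of these rrn-4 copies lie close together on V. How reads that align equally to several copies were treated is not known for them either. U6 genes, also transcribed by RNA polymerase III, were not analysed here as such, and the snRNA share mixes genes of both polymerases.

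Protein genes of the tRNA pathway had peaks near their starts at lower shares than the 38.4% of tRNA genes, in short lists with few peaks. A summit lay in the window from 1500 bp upstream to 500 bp downstream of the start of 4.12% of protein-coding genes. Of 22 aminoacyl-tRNA synthetase genes 1 (4.55%) had a peak, fars-3, which encodes a subunit of phenylalanyl-tRNA synthetase (118.5). Of 15 genes listed under RNA polymerase III and its factors 2 (13.3%) had one. They were rpac-19, a subunit shared with RNA polymerase I (130.8), and tftc-5, a TFIIIC subunit (98.5). None of 5 tRNA processing genes did.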

How the data were processed

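ChIP-seq peak lists of both replicates were used on ce11 (WBcel235). Per the deposited file descriptions, replicate and pooled lists came from alignments plus a control, and the optimal list from these lists. The sources used here name neither aligner nor peak caller. The deposited lists give a signal value per entry, used to rank and describe entries, a −log10 q-value, and the summit's distance from the entry's start. Lists on another build were not used.

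tRNA genes came from Ensembl release 115, isotypes from RefSeq features at the same position (612 of 612, with an isotype for 607), and anticodons from the folded gene sequence, kept where they matched the isotype. Python 3.11.15, numpy 2.4.6, pandas 2.3.3 and scipy 1.17.1 were used, and matching steps were tested on simulated data. Intervals are exact Clopper-Pearson. The members, lists and alternatives were chosen with earlier results of these data known. Named peaks are the 12 strongest, the 3 weakest, those nearest the 500 bp limit, the 3 largest rank differences each way and extreme families of 5 or more genes; others are said to be chosen afterwards. In the pathway lists, 1 synthetase and 2 processing genes had no match.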

Additional observations from a re-analysis of the deposited data

How the results depend on the processing

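The count of 205 tRNA peaks was within 1.5 times of itself with limits of 200 bp or 1000 bp, inside the gene, in the stronger peaks, in either replicate and by distinct interval, at 152 to 211. The whole pooled list held 418. The count of 235 genes became 152 inside the gene and 424 with the pooled list, and was 227 to 233 with 1 replicate. Merging genes closer than 1000 bp gave 200 of 476 loci. X minus autosomes was 2.65 percentage points, -0.569 at 200 bp, and 3.91 to 6.35 with 1 replicate. Intron minus intergenic was 1.61 points, -2.3 in the stronger peaks, and -1.54 to -0.122 with 1 replicate. Repeated minus unique sequence was 16.3 points, 12.9 in the stronger peaks and 15.9 to 16.5 with 1 replicate. The B box difference was 0.414 points, -0.0968 at 200 bp, 0.0211 in the stronger peaks, and 0.359 to 0.891 with 1 replicate. The median position was 12 to 17 bp with 1 replicate. The cause of these changes was not tested. The difference of 6 points in median upstream GC, an alternative set chosen after seeing the data, was 6 under each of 4 settings. Anticodon families with a peak numbered 41 to 43. Of 205 tRNA peaks, 174 to 176 were in both replicates by other overlap rules, and 125 (61.0%) at the halved limit, against 499 other peaks (34.9%). No paired analysis was possible because there is 1 group. Strength, hexamer and pathway results had no alternatives. Within 50 bp a summit lay at 32.5% of tRNA genes, 11.3% of snoRNA genes, 11.6% of snRNA genes and 2.68% of miRNA genes. Inside the gene the shares were 24.8%, 3.47%, 8.53% and 1.53%. Depth is unknown, and weak peaks near the threshold cannot be told from absent ones.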
